A study of Mus musculus with 2 samples.

Results

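The genes described here encode the hemidesmosome and its ligand laminin 332, the anchor that holds the basal layer of a stratified epithelium to its basement membrane. They were chosen by name as 8 genes (*Lama3*, *Lamb3*, *Col17a1*, *Itgb4*, *Itga6*, *Dst*, *Plec* and *Cd151*) of the 20198 genes in a table of unique molecular identifier (UMI) counts from single cells of mouse cornea, and all 8 were in the table. The cells came from 2 droplet libraries. The UW library pooled the corneas of 4 unwounded mice, and the W library those of 4 mice taken 24 h after a central disc of corneal epithelium 2.5 mm wide had been marked with a trephine and scraped off, leaving the stroma. The mice were males aged 6 to 8 weeks with no genetic change named, and their strain was not given in the sources used here. Before sequencing, the epithelium had been lifted off its basement membrane by 18 h in cold dispase and then trypsinized, and the rest of the cornea was digested with collagenase, in both groups alike.

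A hemidesmosome links the keratin filaments of a basal cell to the extracellular matrix beneath it. Integrin α6β4 (*Itga6*, *Itgb4*) binds laminin 332, to which *Lama3* gives the α3 and *Lamb3* the β3 chain, and collagen XVII (*Col17a1*) and the tetraspanin CD151 (*Cd151*) sit with it in the membrane. Inside the cell the plakins plectin (*Plec*) and dystonin (*Dst*, whose epithelial form is BPAG1e) tie the complex to keratins 5 and 14. In corneal wounds, cells at the edge are known to take hemidesmosomes apart while they move and to lay down laminin 332 ahead of new ones.

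Start regions of *Lamb3*, *Col17a1* and *Dst* are shown because *Lamb3* and *Dst* went opposite ways after wounding, with *Col17a1* in between. RefSeq windows (GRCm38.p6) were found for 4 of the 8 genes, the fourth being *Cd151*. Both *Cd151* windows and a second *Lamb3* window, at chr1:193301993-193302190, overlapped annotated exons and are not shown. Each line holds the bases from 250 to 53 before the RefSeq start, 5′ to 3′ on the gene's strand, and capitals mark matches, on either strand, to AP-1 (TGANTCA), Sp and KLF (GGGCGG), KLF (CACCC), TEAD (GGAATG) and RUNX (TGTGGT) motifs. No 2 of these matches overlapped. *Dst* has 2 such starts that are shown.
Lamb3, chr1:193301744-193301941, plus strand: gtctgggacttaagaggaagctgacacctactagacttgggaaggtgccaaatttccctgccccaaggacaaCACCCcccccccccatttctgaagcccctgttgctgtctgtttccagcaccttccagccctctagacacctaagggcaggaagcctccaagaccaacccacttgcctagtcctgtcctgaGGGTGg
Col17a1, chr19:47692095-47692292, minus strand: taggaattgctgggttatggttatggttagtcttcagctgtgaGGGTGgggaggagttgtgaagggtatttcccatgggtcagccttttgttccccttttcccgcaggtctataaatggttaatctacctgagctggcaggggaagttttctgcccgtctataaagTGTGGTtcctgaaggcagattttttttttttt
Dst, chr1:34011345-34011542, plus strand: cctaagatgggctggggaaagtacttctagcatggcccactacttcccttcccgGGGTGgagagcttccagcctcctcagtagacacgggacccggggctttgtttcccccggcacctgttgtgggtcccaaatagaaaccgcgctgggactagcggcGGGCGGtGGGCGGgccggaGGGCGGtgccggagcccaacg
Dst, chr1:34160010-34160207, plus strand: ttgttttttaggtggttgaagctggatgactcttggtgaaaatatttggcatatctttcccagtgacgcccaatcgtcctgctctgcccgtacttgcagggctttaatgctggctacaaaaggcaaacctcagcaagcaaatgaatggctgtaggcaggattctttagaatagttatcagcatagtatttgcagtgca
The *Lamb3* window shown held 2 matches to CACCC (the second held 3 to CACCC and 1 to GGAATG), the *Col17a1* window 1 to CACCC and 1 to TGTGGT, the *Dst* window at 34011345 held 3 to GGGCGG and 1 to CACCC, and the other *Dst* window none. Of 32851 RefSeq windows of this length, 5.50% held the AP-1 letters, 24.3% GGGCGG, 44.0% CACCC, 10.6% GGAATG and 11.4% TGTGGT. These are matches of letters in the windows and nothing more.

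In GENCODE M21 (GRCm38), *Lamb3* is at chr1:193207699-193343878, *Dst* at chr1:33908225-34308661, *Itgb4* at chr11:115974709-116008412, *Itga6* at chr2:71745616-71858416 and *Cd151* at chr7:141467392-141471473, all on the plus strand. *Col17a1* is at chr19:47646344-47692094 and *Plec* at chr15:76170974-76232574, both on the minus strand. The annotated span of *Lamb3* overlapped 6 other genes, among them *G0s2* and *Hsd11b1*, and that of *Plec* overlapped *Parp10* on the same strand, so reads from shared stretches are uncertain. In cluster 3, described next, these neighbours were low in both libraries but higher in W. *G0s2* was at 0.854 CPM (UMIs per 1000000 UMIs summed) in UW and 8.68 CPM in W. *Hsd11b1* had no UMI in UW and was under 1 CPM in W, and *Parp10* was at 3.91 and 9.17 CPM. *Dst* and *Plec* make several isoforms, and the table holds 1 sum per gene.

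The UW library held 16450 cells with 367166822 UMIs and the W library 12417 cells with 289586482 UMIs, with medians of 22014 and 20290 UMIs per cell, and 52 cell barcodes occurred in both. The authors had assigned the cells to 17 clusters, of which 12 held at least 50 cells in each library. Clusters 3, 8, 9 and 11 scored highest for the basal markers *Krt5*, *Krt14*, *Itgb1*, *Ccnd1* and *Trp63* (mean z-score over clusters 0.93 to 1.05, against at most 0.48 in the other epithelial clusters). Cluster 3 was the basal-like one (1789 UW and 885 W cells), cluster 8 mitotic-like (535 and 1332) and cluster 11 S-phase-like (612 and 562). Cluster 9 (521 and 956) was led by *Wfdc18* and *Dlk2* from the quiescent limbal list, although its highest score was for S phase, and is left unnamed. Clusters 1 and 4 were suprabasal-like, 2, 6 and 7 superficial-like, 5 conjunctival-like and 0 stromal-like. Cluster 10, with *Penk* and *Myoc* leading and both endothelial and stromal markers, is left unnamed.

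With a single library per condition there were no replicates to compare, so differences were not tested and no p-values are given. Values are UMIs of a gene summed over the cells of a cluster and library, as CPM, with the exact Poisson 95% interval in parentheses. Changes are log2 ratios of CPM, W over UW, with an interval from the exact binomial interval of the counts. All intervals cover counting error only and leave out differences between mice and between library preparations. The clusters were built from these same counts, and the 10 leading genes of cluster 3 included *Lamb3*, *Lama3* and *Itgb4*, so levels across clusters are a description.

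All hemidesmosome genes apart from *Cd151* had their highest level in a basal cluster (3, 8, 9 or 11) in both libraries, though *Plec* in UW was highest in cluster 2 with TMM or size factors. From basal-like cluster 3 to suprabasal-like cluster 1 of UW the drop was largest for *Itgb4* (134 to 3.06 CPM) and *Lamb3* (26.7 to 0.873 CPM). The order among the basal clusters differed between genes and changed with wounding.

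**Figure D1:**
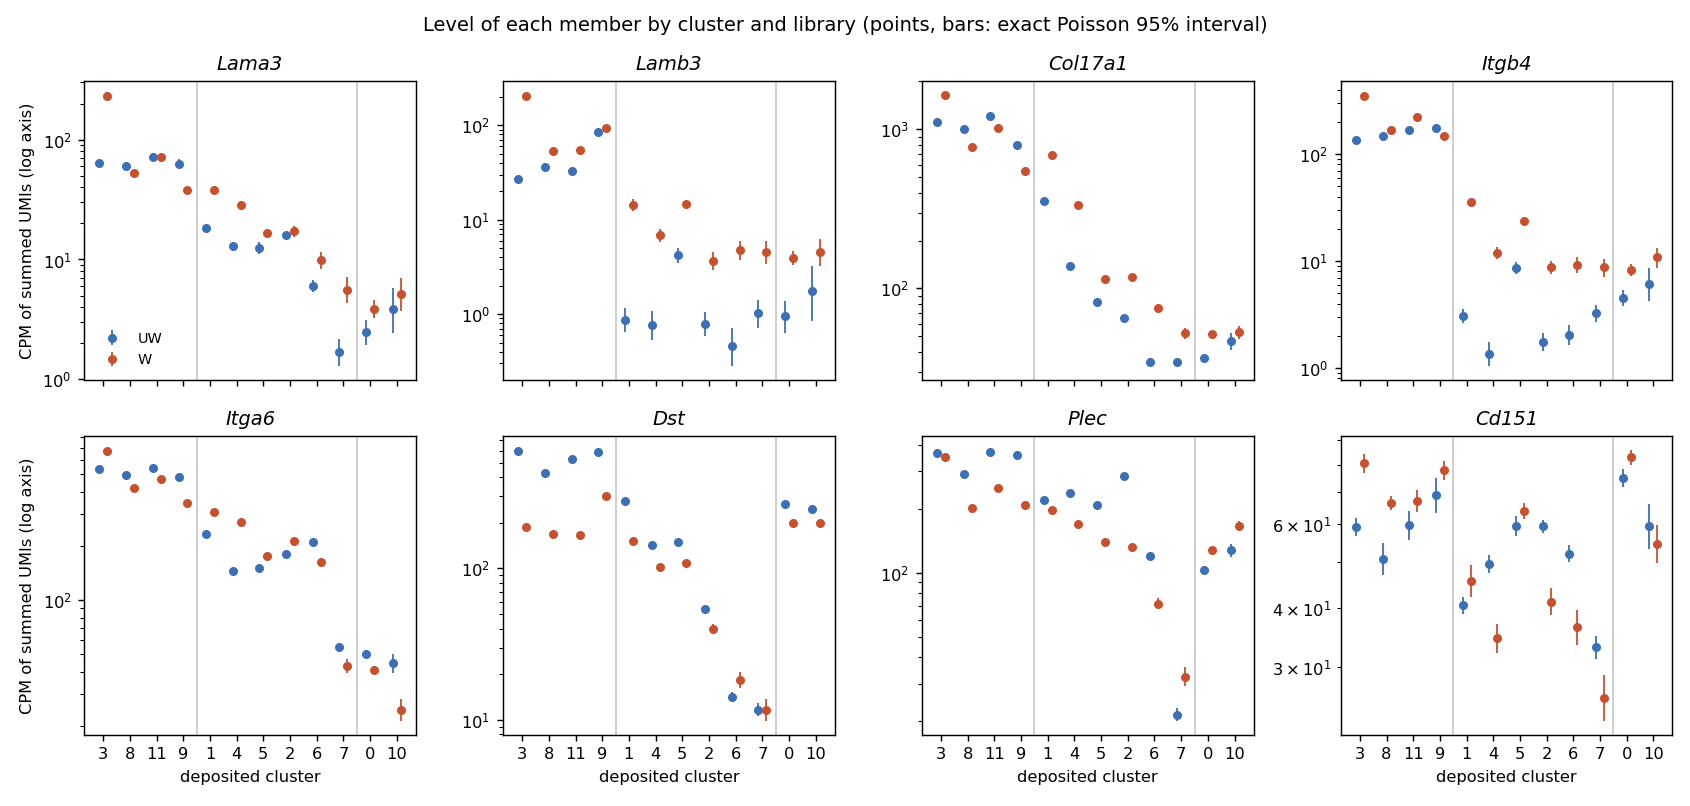
Level of each gene (CPM of summed UMIs, log axis) in 12 deposited clusters, with UW in blue and W in red and bars for the exact Poisson 95% interval. Grey lines part the basal clusters 3, 8, 11 and 9 from the other epithelial clusters and from clusters 0 and 10. *Lama3*, *Lamb3* and *Itgb4* in W stand highest in cluster 3, and *Dst* is lower in W in all basal clusters.

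Among the laminin chains, *Lama3* in UW was at 71.9 CPM (67.4 to 76.7) in cluster 11, then 63.8 (61.1 to 66.6) in cluster 3, 62.9 (57.4 to 68.8) in cluster 9 and 60.7 (56.5 to 65.1) in cluster 8. The last 3 overlapped in their intervals, and cluster 1 followed at 18.4 CPM (17.3 to 19.6). *Lamb3* in UW had another order, with 84.7 CPM (78.3 to 91.5) in cluster 9, 36.0 (32.8 to 39.5) in cluster 8, 32.5 (29.5 to 35.8) in cluster 11 and 26.7 (25.0 to 28.5) in cluster 3. Cluster 9 thus stood apart for the β3 chain and not for the α3 chain, and only clusters 8 and 11 overlapped. In the other epithelial clusters of UW *Lamb3* was at 0.459 to 4.19 CPM.

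*Itgb4*, the β4 subunit that defines the hemidesmosomal integrin, was in UW at 174 CPM (164 to 183) in cluster 9, 167 (160 to 174) in cluster 11, 146 (140 to 153) in cluster 8 and 134 (130 to 138) in cluster 3. Clusters 9 and 11 were within their counting error. Outside the basal clusters it dropped to between 1.37 and 8.57 CPM in the epithelium, near the 4.54 CPM of stromal-like cluster 0. *Itga6*, the α6 subunit that also pairs with β1, was spread more widely, at 482 to 539 CPM in the basal clusters of UW and 146 to 233 CPM in clusters 1, 2, 4, 5 and 6. *Cd151*, a tetraspanin found in many cell types, was highest in stromal-like cluster 0 at 75.0 CPM (71.9 to 78.3), or in superficial-like cluster 7 with TMM or size factors, and ran from 50.7 to 68.9 CPM in the basal clusters. Its 7 highest clusters, with 3, 9 and 11 among them, each overlapped the next in their intervals.

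*Col17a1* in UW was at 1217 CPM (1198 to 1236) in cluster 11, 1108 (1097 to 1119) in cluster 3, 1000 (983 to 1017) in cluster 8 and 792 (772 to 812) in cluster 9, with no overlap between neighbours. Unlike *Itgb4* it kept an intermediate level in suprabasal-like cluster 1, at 357 CPM (352 to 362). Of the plakins, *Dst* was at 598 CPM (590 to 607) in cluster 3 and 592 (574 to 609) in cluster 9, which overlapped, and at 529 (517 to 542) and 428 (417 to 439) in clusters 11 and 8. *Plec* was at 366 CPM in cluster 3 and, in the superficial-like clusters, at 285 CPM in cluster 2, 119.6 CPM in cluster 6 and 21.5 CPM in cluster 7.

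In droplets, RNA set free during dissociation gives UMIs in cells that do not make it, so the epithelial genes were read against stromal-like cluster 0. There *Lama3*, *Lamb3*, *Col17a1* and *Itgb4* stood at 3.31% to 3.86% of their cluster 3 level in UW and at 1.68% to 3.16% in W, beside 6.62% and 7.50% for *Krt5*. Values of these 4 genes near that share in the superficial-like clusters are not read as expression. *Dst* in cluster 0 was at 44.4% of its cluster 3 level in UW, *Plec* at 28.3% and *Cd151* at 127%, well over that share, and *Itga6* at 9.36%. In the immune clusters of W, *Lamb3* reached 37.0 CPM (28.8 to 47.0) in cluster 13, a cluster with a median of 2510 UMIs per cell in which *G0s2*, whose locus overlaps the annotated span of *Lamb3*, was at 950 CPM. That was 18.1% of its cluster 3 level in W. Other epithelial genes were there too, *Krt5* at 35.7%, *Krt12* at 30.1%, *Col17a1* at 12.9%, *Itgb4* at 7.75% and *Lama3* at 7.07%. In cluster 16 *Lamb3* was at 32.7 CPM. The source of these UMIs was not tested.

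After wounding, cluster 3 showed the laminin chains and *Itgb4* higher, *Col17a1*, *Itga6* and *Cd151* a little higher, *Plec* almost level and *Dst* lower. *Lamb3* went from 26.7 CPM in UW (875 UMIs) to 205 CPM (199 to 211, 4632 UMIs) in W, a log2 ratio of 2.94 (2.84 to 3.05), or 7.69-fold. *Lama3* went from 63.8 to 231 CPM (225 to 238), a log2 ratio of 1.86 (1.78 to 1.93). Both chains were thus more than 3-fold higher in W, with counting intervals far apart.

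*Itgb4* went from 134 to 351 CPM (344 to 359), a log2 ratio of 1.39 (1.34 to 1.44). Its partner *Itga6* went from 536 (528 to 544) to 673 CPM (663 to 684), a log2 ratio of 0.33 (0.30 to 0.36), so the integrin's subunits differed in the size of their change. *Cd151* went from 59.2 (56.6 to 61.9) to 80.7 CPM (77.0 to 84.5), a log2 ratio of 0.45 (0.35 to 0.54) that was 0.27 in thinned cells and 0.16 as mean per-cell CPM. *Col17a1* went from 1108 to 1636 CPM (1619 to 1652), a log2 ratio of 0.56 (0.54 to 0.58).

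The 2 plakins parted. *Dst* went from 598 to 187 CPM (181 to 193), a log2 ratio of -1.68 (-1.73 to -1.63). *Plec* was at 366 CPM (359 to 372) in UW and 348 CPM (341 to 356) in W, a log2 ratio of -0.07 (-0.11 to -0.03).

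In cluster 3 all 8 genes passed the minimum of 20 UMIs and 50 CPM in a library. Of them 4 were past 2-fold in either direction (*Lama3*, *Lamb3* and *Itgb4* higher in W, *Dst* lower), beside 21.5% of the 3005 genes over that minimum. *Lamb3* passed the minimum only through W, where it was high, so its place in this count adds no support to its ratio. The median log2 ratio of the 8 was 0.50, and that of all 3005 genes -0.01. In clusters 8, 9 and 11 the median of the 8 was -0.22, -0.52 and -0.10. For all genes over the minimum it was -0.04, 0.05 and 0.06 in those clusters. Since *Lama3*, *Lamb3* and *Itgb4* helped set cluster 3 apart, a higher level in the same kind of cell and another choice of W cells in the cluster cannot be told apart here, and the 4 basal clusters were also summed, an alternative added after seeing the data. In that sum *Lamb3*, again over the minimum only in W, was at 36.3 and 91.5 CPM, past 2-fold with a log2 ratio of 1.33 (1.27 to 1.40, beside 9.27% of 3085 genes higher), and *Dst* at least 2-fold lower (beside 8.49%), at 551 and 201 CPM and a log2 ratio of -1.46 (-1.48 to -1.43). *Lama3* shrank to 0.44 (0.39 to 0.49) and *Itgb4* to 0.50 (0.46 to 0.53), and *Col17a1* and *Itga6* turned to -0.20 (-0.21 to -0.18) and -0.18 (-0.20 to -0.16). The median of the 8 in this sum was 0.05, and that of all 3085 genes 0.04. The clusters made up other shares of the sum in each library. Cluster 3 gave 1789 UW and 885 W cells, and cluster 8 gave 535 and 1332. The part of this in the ratios was not tested.

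**Figure D2:**
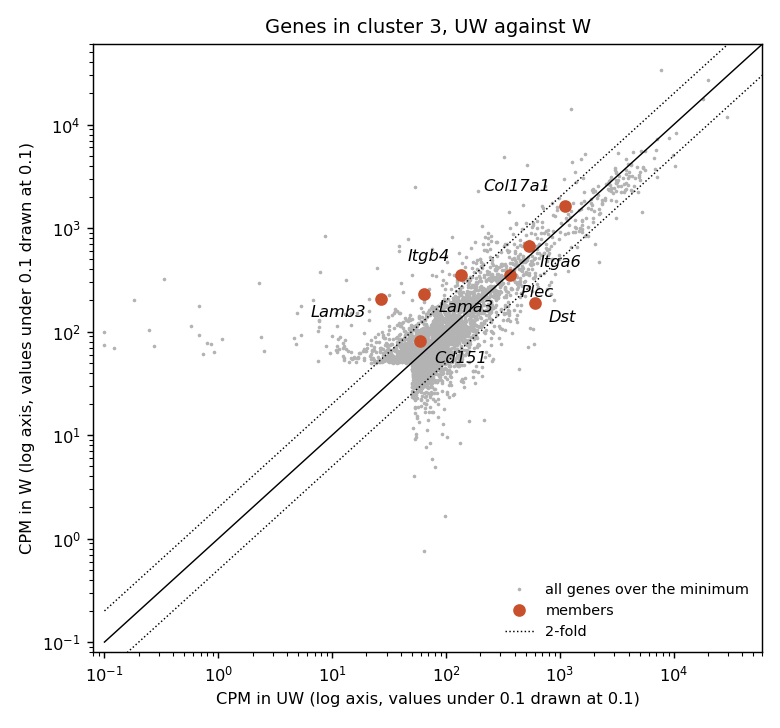
Level of the 3005 genes over the minimum in cluster 3, UW on the x axis against W on the y axis (CPM, log axes), with the 8 genes in red, the line of equal level and dotted lines at 2-fold. *Lamb3* stands farthest above the line among the 8 genes and *Dst* farthest below it.

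Other changes moved with these in cluster 3. The simple epithelial keratin *Krt18* went from 2.29 to 297 CPM, and the corneal keratin *Krt12* from 29083 to 11905 CPM. The 5 neutrophil markers together went from 9.46 to 564 CPM, of which *S100a8* and *S100a9* made 178 and 375 CPM in W. *Csf3r* and *Retnlg*, more specific to neutrophils, were at 0.664 and 0.886 CPM in W, against 409 and 238 CPM in cluster 13. The part of these changes in the differences of the hemidesmosome genes was not tested.

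**Figure D3:**
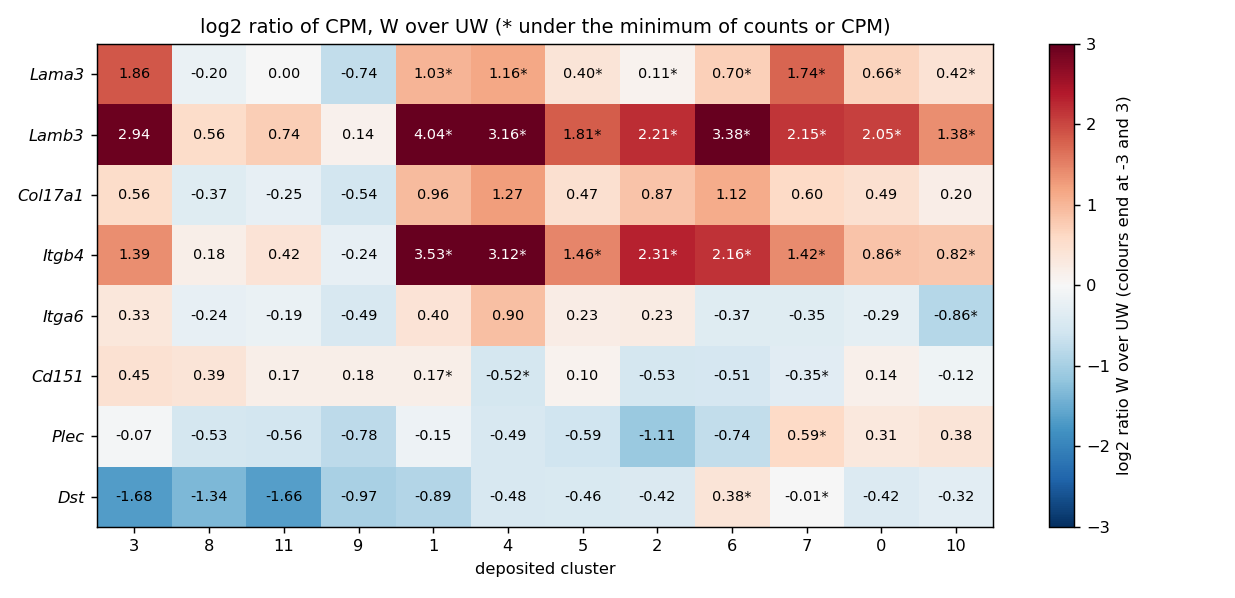
Log2 ratio of CPM, W over UW, of the 8 genes (rows) in 12 deposited clusters (columns), red for higher and blue for lower in W. Stars mark values under 20 UMIs or 50 CPM in both libraries. Among the values without a star, cluster 3 holds the highest *Lama3* ratio, 1.86. *Lamb3* there, at 2.94, has no star only through its level in W. Starred *Lamb3* ratios are higher in clusters 1 (4.04), 6 (3.38) and 4 (3.16). *Dst* is below 0 in the 4 basal clusters at the left, -1.68 to -0.97.

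In the other basal clusters *Lama3* was not higher in W, and *Lamb3* and *Itgb4* had smaller ratios than in cluster 3. In mitotic-like cluster 8 *Lama3* was at 60.7 CPM in UW and 53.0 CPM in W (log2 ratio -0.20, -0.31 to -0.08), in cluster 11 at 71.9 and 71.7 CPM (0.00, -0.12 to 0.12), and in cluster 9 at 62.9 and 37.7 CPM (-0.74, -0.90 to -0.58). In W, *Lama3* in cluster 3 thus stood well over the other basal clusters, while in UW the 4 clusters had run from 60.7 to 71.9 CPM. *Lamb3* was higher in each, from 36.0 to 53.2 CPM in cluster 8 (log2 ratio 0.56, 0.42 to 0.71), 32.5 to 54.3 CPM in cluster 11 (0.74, 0.58 to 0.90) and 84.7 to 93.3 CPM in cluster 9 (0.14, 0.01 to 0.27). *Itgb4* had log2 ratios of 0.18 (0.11 to 0.26), 0.42 (0.34 to 0.49) and -0.24 (-0.33 to -0.15) in clusters 8, 11 and 9.

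*Col17a1* was lower in W in all 3, from 1000 to 773 CPM in cluster 8, 1217 to 1026 CPM in cluster 11 and 792 to 543 CPM in cluster 9, with log2 ratios of -0.37, -0.25 and -0.54. *Itga6* followed with -0.24, -0.19 and -0.49, and *Plec* with -0.53, -0.56 and -0.78. *Cd151* had ratios of 0.39, 0.17 and 0.18, but in thinned cells its mean in UW and W was 0.325 and 0.320 UMIs per cell in cluster 11 and 0.366 and 0.377 in cluster 9. The intervals of the *Col17a1*, *Itga6* and *Plec* ratios all lay below 0.

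*Dst* was lower in W in every basal cluster. It went from 428 to 169 CPM in cluster 8 (log2 ratio -1.34, -1.39 to -1.29), from 529 to 167 CPM in cluster 11 (-1.66, -1.72 to -1.60) and from 592 to 303 CPM in cluster 9 (-0.97, -1.02 to -0.91). In W its highest level was in cluster 9, and in stromal-like cluster 0 it was at 199 CPM (194 to 204). All 8 genes passed the minimum in clusters 8, 9 and 11. *Lamb3* did so only through W in clusters 8 and 11, and *Lama3* only through UW in cluster 9, the library where each was higher. Past 2-fold were *Dst* in clusters 8 and 11, beside 15.1% and 18.3% of all genes in either direction, and none in cluster 9, beside 14.2%.

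Above the basal layer the picture was mixed. In suprabasal-like cluster 1 *Col17a1* went from 357 to 692 CPM (679 to 706), a log2 ratio of 0.96 (0.92 to 0.99), and in suprabasal-like cluster 4 from 139 to 334 CPM, 1.27 (1.22 to 1.31). *Lamb3* in cluster 1 went from 0.873 to 14.3 CPM (12.4 to 16.4) and *Itgb4* from 3.06 to 35.5 CPM (32.5 to 38.7), both under the minimum of 50 CPM. In W these levels stood above cluster 0, at 3.94 and 8.26 CPM. Median depth in cluster 1 was 22718 UMIs per cell in UW and 22368 in W. *Krt14*, keratin 14 of the basal layer, went from 136 to 17124 CPM in the same cells.

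*Dst* in cluster 1 went from 280 (276 to 285) to 152 CPM (145 to 158), a log2 ratio of -0.89 (-0.95 to -0.82). *Plec* was lower in superficial-like cluster 2, from 285 to 132 CPM (log2 ratio -1.11, -1.16 to -1.05), and in clusters 4, 5 and 6 (-0.49, -0.59 and -0.74). In superficial-like cluster 6 *Col17a1* went from 34.5 to 74.9 CPM, 3.12% and 4.58% of its cluster 3 level, close to the share found in the stroma. Of the 4 genes that passed the minimum in cluster 1 none was past 2-fold, beside 18.8% of all genes. Past 2-fold were *Plec* of 5 in cluster 2 (beside 19.9%), which was lost with size factors (-0.92), and *Col17a1* of 4 in cluster 4 (beside 21.6%). *Col17a1* was also past 2-fold among 4 in cluster 6 (beside 20.6%), but it passed the minimum there only through W and, near the stromal share, is not read as expression. None of 5 was called in cluster 5 (beside 13.3%), none of 2 in cluster 7 (beside 22.9%), none of 5 in cluster 0 (beside 10.2%) and none of 4 in cluster 10 (beside 6.75%).

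In stromal-like cluster 0 *Dst* went from 266 (260 to 272) to 199 CPM (194 to 204), *Plec* from 103 (99.7 to 107) to 128 CPM (124 to 132) and *Cd151* from 75.0 to 82.9 CPM (79.8 to 86.1). The log2 ratios were -0.42 (-0.46 to -0.37), 0.31 (0.24 to 0.38) and 0.14 (0.06 to 0.23). *Dst* was thus lower in W in the stroma as well, by less than in the basal clusters.

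Whether the gain in cluster 3 lay in all cells or in some was read from single cells. Cells were thinned to 5000 UMIs, since depth differed (medians of 18682 UMIs per cell in UW and 23906 in W), which left 1708 UW and 865 W cells. *Lamb3* was seen in 13.1% of UW cells (11.5 to 14.8) and 46.8% of W cells (43.5 to 50.2), and without thinning in 33.6% and 79.2%. For comparison, thinned cells of stromal-like cluster 0 held one in 0.475% and 1.81%, at median depths of 11853 and 17588 UMIs. For *Lama3* the share was 27.0% (24.9 to 29.2) and 54.0% (50.6 to 57.3), and for *Itgb4* 43.6% (41.2 to 45.9) and 69.4% (66.2 to 72.4). For these 3 genes more cells held a UMI in W, with intervals that did not overlap. These intervals take the cells of each library as independent and leave out differences between mice and between library preparations. The share of all genes with such a gap in cluster 3 was not counted, so the gap is not read as a trait of these 3 genes.

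In W the top 10% of cells held 51.0% of the *Lamb3* UMIs and 46.5% of those of *Lama3*. In UW, where both were sparser, they held 79.2% and 47.7%, and in W they held 52.0% of those of *Cd151*, so this share is not read as a trait of the laminin genes. Cells with at least 5 UMIs of *Lamb3* per 5000 made 5.09% of cluster 3 in W and 0 of 1708 cells in UW. With a count of 0 taken to allow up to 3, the limit in UW is 0.176%. *Lama3* and *Lamb3* were seen together in 4.39% of UW cells (3.47 to 5.47) and 31.3% of W cells (28.2 to 34.5), and neither in 64.3% (62.0 to 66.6) and 30.5% (27.5 to 33.7). In clusters 8, 9 and 11 the share with both was 2.94% to 10.4% in either library.

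**Figure D4:**
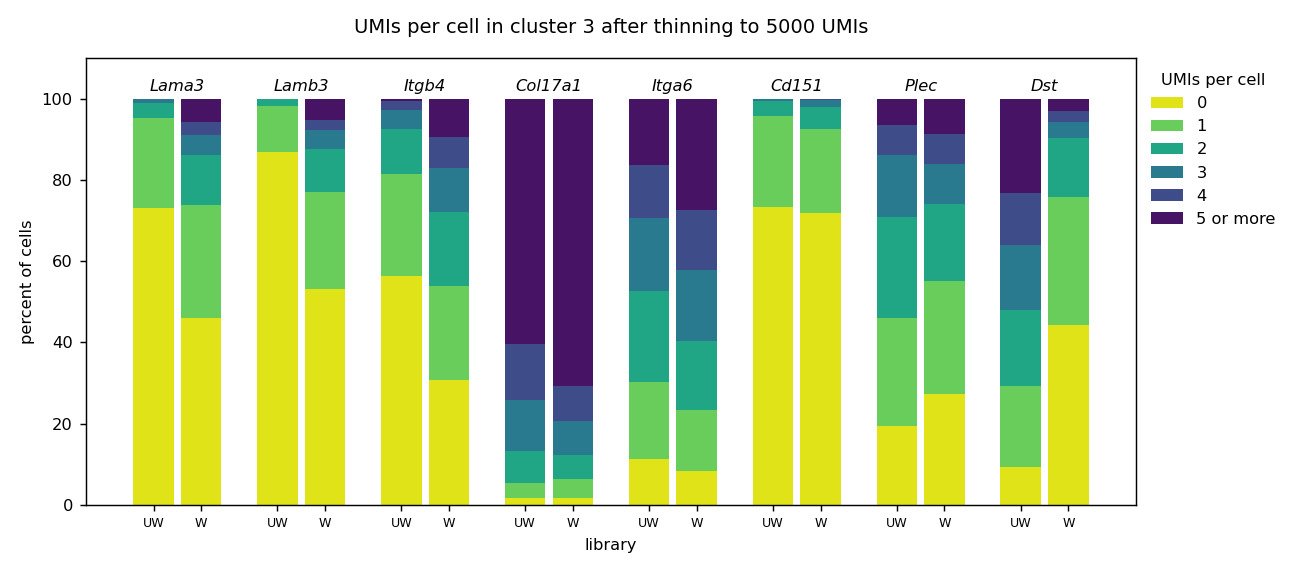
Share of cells of cluster 3 (y axis, percent) with 0, 1, 2, 3, 4 or at least 5 UMIs of each gene after thinning to 5000 UMIs per cell, for UW (1708 cells) and W (865 cells). The laminin chains and *Itgb4* shift to more UMIs in W with a tail of high cells, and *Dst* shifts to fewer.

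*Dst* shifted as a whole. Its share of cells with a UMI went from 90.7% (89.2 to 92.0) to 55.6% (52.2 to 59.0) after thinning, and from 98.5% to 88.5% without it. The median cell held 3 *Dst* UMIs per 5000 in UW and 1 in W. *Col17a1* was seen in 98.4% of cells in both libraries, with medians of 5 and 7 UMIs, and its 95th percentile went from 12 to 23 UMIs. *Plec* had its share fall from 80.6% to 72.8% while cells with at least 5 UMIs went from 6.44% to 8.55%, so cells without it and cells with many UMIs both took a larger share in W.

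Over the cells of cluster 3, *Lama3* and *Lamb3* went together in W, with a Pearson's r of log2(UMIs + 1) in thinned cells of 0.50. In UW it was 0.06, where the means were 0.325 UMIs of *Lama3* and 0.149 of *Lamb3* per cell and a weak r is no finding. *Col17a1* went with *Itgb4* (0.53 in W, 0.30 in UW) and with *Plec* (0.48 and 0.21). *Dst* stayed between 0.02 and 0.16 with the other 7 genes in W, and *Cd151* between 0.02 and 0.16. These values describe 865 and 1708 cells of 1 library each, which share that library's preparation and free RNA.

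**Figure D5:**
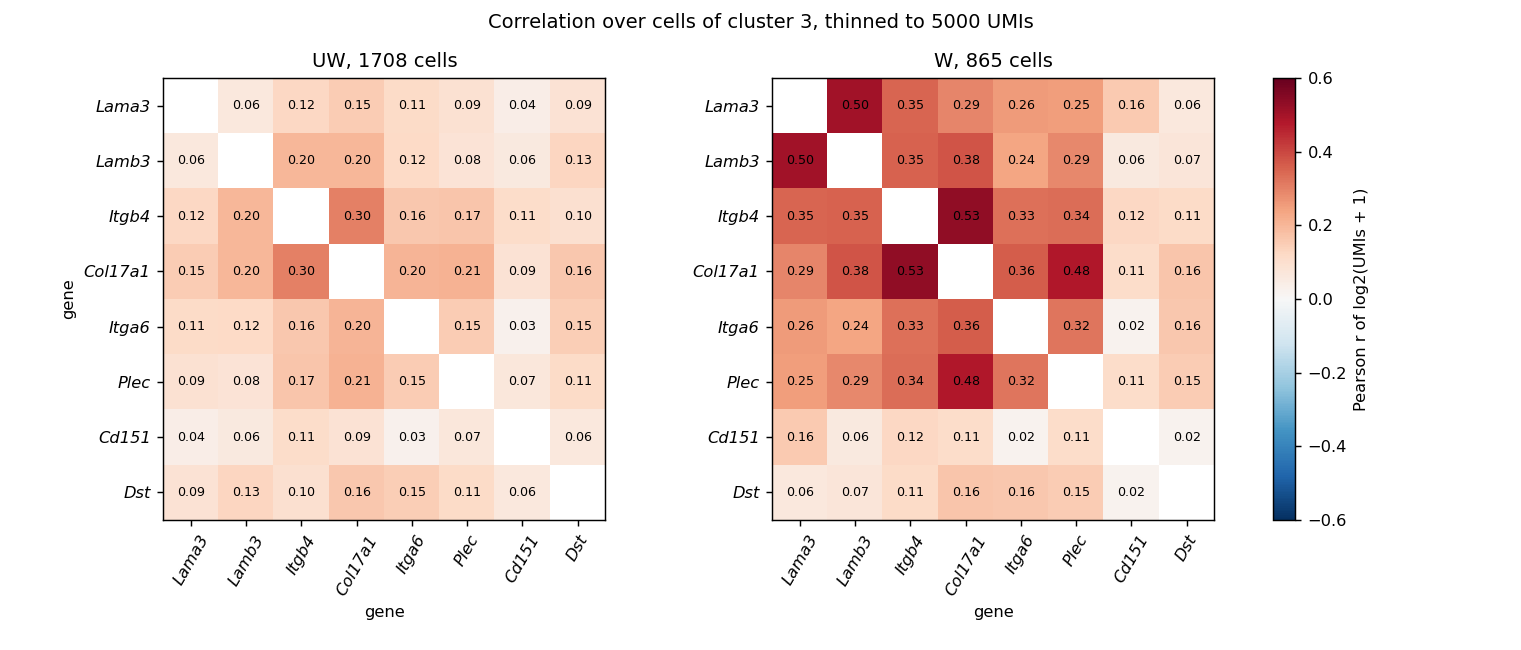
Pearson's r of log2(UMIs + 1) between genes over cells of cluster 3, thinned to 5000 UMIs, for UW (left) and W (right). *Lama3* with *Lamb3* (0.50) and *Col17a1* with *Itgb4* (0.53) and *Plec* (0.48) stand out in W, and the row of *Dst* is pale in both.

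Genes around the hemidesmosome were read from lists in the basal-like cluster 3, where 21.5% of all genes were past 2-fold in either direction and their median log2 ratio was -0.01. Of 19 basement membrane and anchoring genes 2 passed the minimum there, with a median of -1.03, and 1 was at least 2-fold lower in W and none higher. It was *Lamb1*, the β1 chain of other laminins, at 60.1 CPM (1969 UMIs) in UW and 19.0 CPM (428 UMIs) in W, a log2 ratio of -1.66 (-1.82 to -1.51), and it passed the minimum only through UW, where it was high. *Col7a1*, the collagen of the anchoring fibrils under the hemidesmosome, was at 17.4 (16.0 to 18.8) and 23.9 CPM (21.9 to 26.0) in cluster 3, a log2 ratio of 0.46 (0.29 to 0.63). It was lower in W in clusters 9 and 11, at -0.97 (-1.21 to -0.72) and -0.66 (-0.91 to -0.41), and its level in cluster 0 was 24.8 CPM in UW and 10.8 CPM in W.

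Of 7 plakin and basal keratin genes 6 passed and 3 were past 2-fold, 2 higher and 1 lower, with a median of -0.15. *Krt14* went from 1256 to 14011 CPM (log2 ratio 3.48, 3.46 to 3.49) and *Krt15*, a keratin of limbal basal cells, from 389 to 881 CPM (1.18, 1.15 to 1.21), while *Krt5* went from 6928 to 5680 CPM (-0.29, -0.30 to -0.28). *Ppl*, the desmosomal plakin periplakin, went from 359 to 150 CPM (-1.26, -1.32 to -1.21). *Krt14* and *Krt15* were past 2-fold in clusters 8 and 11 too, and *Krt14* in stromal-like cluster 0 was at 57.4 CPM in UW and 821 CPM in W.

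Of 6 integrin and tetraspanin genes 5 passed, with a median of 0.16, and 1 was higher, *Itga3*, the α3 subunit that binds laminin 332 as α3β1, from 50.1 to 103 CPM (1.04, 0.95 to 1.14), a call lost with TMM (1.00, just under 2-fold), thinning (0.99) or mean per-cell CPM (0.96). Its partner *Itgb1* was at 182 and 184 CPM (0.01, -0.04 to 0.07). Of 6 enzyme genes that process or shed matrix and membrane proteins 1 passed, *Mmp14*, a membrane-bound matrix metalloproteinase, at 84.7 and 148 CPM (0.81, 0.73 to 0.88). *Itga3* and *Mmp14* had ratios of -0.50 to -0.03 and -0.26 to -0.13 in clusters 8, 9 and 11.

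The genes with the most similar course over 28 sums of a cluster and a library, among 6222 genes, were found by Pearson's r of log2(CPM + 1), as a description. *Lama3* was closest to *Bok* (0.961), *Col17a1* (0.954) and *Fermt1* (0.947), and *Lamb3* to *Itgb4* (0.954), *Wnt10a* (0.924) and *Wfdc2* (0.922). *Col17a1* was closest to *Bnc1* (0.961), *Lama3* and *Tns4* (0.953), and *Itgb4* to *Nrg1* (0.962), *Spon2* (0.956) and *Lamb3*. *Itga6* was closest to *Tmprss11a* (0.946), *Micall1* (0.933) and *Dmrta2* (0.930), and *Dst* to *Lima1* (0.965), *Sord* (0.957) and *Isoc1* (0.946). *Plec* was closest to *Usp24* (0.925), *Usp10* (0.921) and *Sfr1* (0.917), and *Cd151* to *Dag1* (0.859), *Ptgfrn* (0.859) and *Afap1* (0.853). *Lama3*, *Lamb3*, *Col17a1* and *Itgb4* each had a gene of the complex among their closest, and *Itga6*, *Dst*, *Plec* and *Cd151* had none.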

How the data were processed

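Single cells of mouse cornea were sequenced with a 10x Genomics single-cell 3′ kit (v3 per the labels, V2 per the methods) in 1 UW and 1 W library of 4 mice each. The authors aligned reads with Cell Ranger 3.1.0 to mm10 (the submitters' processing notes name mm9), filtered cells, left out doublets and cells marked by dissociation stress, integrated the libraries and clustered them in Seurat. They deposited raw UMI counts per gene and cell and a table of cells with the clusters used here. Each library held fewer cells in this table than the study counts after its filters.

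Counts were summed per cluster and library in Python 3.11.15 (numpy 2.4.6, scipy 1.17.1, pandas 2.3.3) and expressed per 1000000 UMIs. Intervals are exact Poisson (levels) or Clopper-Pearson (shares, ratios) at 95%. Genes with at least 20 UMIs and 50 CPM in a library, in clusters with at least 50 cells in each, were called past 2-fold. A sum of 0 was set to 3 counts. The ratio calculation was tested on simulated data. Alternatives were TMM factors (edgeR 4.0.16), median-of-ratios size factors (DESeq2 1.42.0, R 4.3.3), a stricter cell filter, first-run doublets left out, mean per-cell CPM and thinning to 5000 UMIs. Named were all 8 genes, *Col7a1*, list genes past 2-fold in cluster 3, and for each of the 8 the 3 genes closest in level. *Krt18*, *Krt12*, *Krt5*, *Itgb1*, *Mmp14* and the neighbouring and marker genes were named after their values were seen. A gene of the lists is not reported here. The genes and lists were chosen with earlier results of these data known.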

Additional observations from a re-analysis of the deposited data

Results flagged for a closer look

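In clusters 3 and 9, differences between W and UW had opposite directions for 4 of the 8 genes, beyond counting error in both. The share of all genes with such a reversal was not counted, so this is not read as a trait of the 8. *Lama3* passed the minimum of 50 CPM in cluster 9 only through UW, at 62.9 CPM against 37.7 CPM in W. The log2 ratio of W over UW was 1.86 in cluster 3 and -0.74 in cluster 9 for *Lama3*, and 1.39 and -0.24 for *Itgb4*. It was 0.56 and -0.54 for *Col17a1*, and 0.33 and -0.49 for *Itga6*. With 1 library per condition the difference was not tested, and the clusters were made from the same counts.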

How the results depend on the processing

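Each condition was 1 library, so no replicate could be left out. No paired analysis was possible because the groups share only 1 number, that of their single library. In cluster 3 the count of genes past 2-fold, with *Lamb3* over the minimum only in W, was 4 under each of 6 alternatives, and over 12 clusters the 9 calls became 8 to 11. Beside these counts, the share of all genes past 2-fold was 21.5% in cluster 3 and 6.75% to 22.9% over the 12 clusters. The 9 calls are not read as a trait of the 8 genes. *Plec* in cluster 2 was lost with size factors and *Col17a1* in cluster 6 with TMM and thinning, while *Col17a1* in cluster 2 and *Itga6* and *Cd151* in cluster 4 were gained under at least 1 setting. Log2 ratios in cluster 3 kept their direction under these 6 alternatives, from 2.83 to 3.04 for *Lamb3*, 1.80 to 1.88 for *Lama3*, 1.30 to 1.47 for *Itgb4*, -1.72 to -1.59 for *Dst*, 0.52 to 0.60 for *Col17a1*, 0.28 to 0.36 for *Itga6*, 0.16 to 0.53 for *Cd151* and -0.12 to -0.05 for *Plec*. TMM and size factors moved all ratios of cluster 3 by -0.05 and -0.02. Thinning to 5000 UMIs moved the W minus UW difference in the share of cells with a UMI from 45.6 to 33.7 percentage points for *Lamb3*, and gave -35.1 points for *Dst*, whose shares at full depth were 98.5% and 88.5%. The cause was not tested. The 7 genes highest in a basal cluster were 6 in UW and 8 in W with TMM or size factors, where *Plec* in UW was highest in cluster 2 and *Cd151* in W in cluster 3. Without the minimum on counts and CPM the share of all genes past 2-fold in cluster 3 went from 21.5% to 24.0%. Taking the epithelial clusters together, an alternative added after seeing the data like that of the 4 basal clusters, gave 2.59 for *Lamb3*, 1.79 for *Itgb4*, 1.22 for *Lama3* and -0.53 for *Dst*. *Lamb3* was under the minimum there, at 8.12 CPM in UW and 49.1 CPM in W. The clusters made up other shares of this sum in each library, such as 2461 UW and 591 W cells in cluster 1. For cluster 8 these were 535 and 1332 cells. The part of this in the ratios was not tested.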

Other observations

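Some basement membrane genes under the minimum of 50 CPM were far lower in W in all 4 basal clusters. They were chosen after their values were seen, from the 19 basement membrane and anchoring genes. The rest of that list, and all genes at such low levels, were not tallied. *Fras1* and *Frem2* encode parts of the Fraser complex, which sits in the sublamina densa of epithelial basement membranes. In cluster 3 *Fras1* was at 23.2 CPM (760 UMIs) in UW and 0.576 CPM (13 UMIs) in W, and *Frem2* at 26.0 CPM (852 UMIs) and 1.55 CPM (35 UMIs), with log2 ratios of -5.33 (-6.25 to -4.55) and -4.07 (-4.60 to -3.58). In clusters 8, 11 and 9 the ratios were -4.74, -5.23 and -3.64 for *Fras1* and -4.06, -4.50 and -2.45 for *Frem2*. *Fras1* was also lower in stromal-like cluster 0, at 41.1 CPM in UW and 8.66 CPM in W.

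*Nid1*, the linker nidogen 1, went from 22.0 to 4.43 CPM in cluster 3, a log2 ratio of -2.31 (-2.63 to -2.01), and had ratios of -2.24, -2.52 and -2.27 in clusters 8, 11 and 9. In stromal-like cluster 0, where its level was higher, *Nid1* was at 255 CPM in UW and 253 CPM in W (-0.01, -0.06 to 0.04). *Lamb1*, which was over the minimum in cluster 3 through UW, was lower in clusters 8, 11 and 9 as well, with ratios of -2.43, -2.20 and -2.29.

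*Hspg2*, the proteoglycan perlecan, stood on the other side in cluster 3, at 4.21 CPM (138 UMIs) in UW and 14.2 CPM (321 UMIs) in W, a log2 ratio of 1.76 (1.46 to 2.05). These are values of 1 library per condition, and none of the differences was tested.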
